A study of Mus musculus with 10 samples.

Results

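The endothelial genes described here were 9 listed markers and regulators of the cells that line blood vessels: Cdh5, Pecam1, Kdr, Flt1, Tek, Tie1, Emcn, Eng and Cldn5. Each symbol matched 1 of the 36191 Ensembl gene IDs of the deposited count table, and no level or fold change entered the rule. Their RNA was measured in 10 libraries of mouse embryonic stem (ES) cells and of cultures derived from them, all of the strain background 129x1 x 129S1. The Rybp null mutant cells, called Rybp-null below, gave 1 library as ES cells (day 0), 2 at day 8 and 2 at day 14, and the wild type cells gave the same numbers. Day 0 cells were kept in medium with leukemia inhibitory factor. The cultures of days 8 and 14 came from hanging-drop embryoid bodies that were led toward the cardiac lineage. How the null allele was made and how many clones were used were not given in the sources used here. The study asked how the absence of Rybp, a RING1-binding subunit of Polycomb repressive complexes, alters transcripts along that course.

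Endothelial cells arise from mesoderm that also gives blood and heart cells, and they form in embryoid bodies without being selected for. Their identity rests on receptors for growth factors of the VEGF and angiopoietin families, which drive the formation and the stability of vessels, and on proteins that join neighbouring cells. Cdh5 encodes VE-cadherin, the adhesion protein of endothelial adherens junctions, Pecam1 an adhesion protein of endothelial cells, platelets and leukocytes that mouse ES cells also make, and Cldn5 the tight junction protein claudin-5. Kdr encodes the main signalling receptor for VEGF, and Flt1 a receptor that binds VEGF tightly, signals weakly and is also made by trophoblast. Tek encodes Tie2, the angiopoietin receptor, and Tie1 its partner receptor. Emcn encodes endomucin, a sialomucin of the endothelial surface, and Eng encodes endoglin, a co-receptor for BMP and TGF-beta ligands.

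Of the 7 genes with enough counts to test, 6 were higher at day 8 than at day 0 in both genotypes, as were 19% of all genes tested in Rybp-null and 21.2% in wild type cells. At day 14 the differences between genotypes had both signs. At day 14 Tek averaged 23.8 ± 5.81 CPM in Rybp-null and 64.2 ± 0.106 CPM in wild type cultures (SD, n = 2 each), and Emcn had 1 count in the Rybp-null libraries together against 54 in the wild type libraries. Both differences passed the test, as did 0.613% of all genes tested. Cdh5 stood the other way, at 46.9 ± 12.5 CPM in Rybp-null and 13.1 ± 9.07 CPM in wild type cultures, a difference just short of the threshold (adjusted p = 0.0675). CPM are counts brought to a common library size by TMM scaling, and a difference is said to pass at an adjusted p under 0.05 in edgeR's quasi-likelihood test over all 15819 genes with enough counts. Of the 9 genes 7 entered that test, since Eng and Cldn5 had too few counts. Tie1 and Emcn entered it through the groups in which they were high. So did Cdh5 and Kdr, which had no more than 8 counts in either library of day 0. Counts over the 7 genes thus describe them and carry no further weight.

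Library totals ran from 3028153 to 6890792 counts, so that a gene near 1 CPM rested on a handful of reads. Rybp itself had 1 to 4 counts in each Rybp-null library and 64 to 231 counts in each wild type library. The 10 pluripotency genes listed summed to 11252 CPM in the Rybp-null and 6520 CPM in the wild type ES cell library, of which Nanog alone gave 8244 CPM in Rybp-null and 4088 CPM in wild type cells. Pou5f1 was at 0.898 times its wild type value in the Rybp-null cells (95% counting interval 0.805 to 1.00). The 10 cardiomyocyte genes summed to 76.8 to 130 CPM in Rybp-null and 2265 to 2725 CPM in wild type cultures at day 8, and to 195 to 268 CPM in Rybp-null and 950 to 1063 CPM in wild type cultures at day 14, with Nkx2-5 at 0 in the Rybp-null libraries of both days. Within a group the replicates differed by more than counting noise, and more so in Rybp-null cultures. The chi-square of their counts over its degrees of freedom was 16.7 and 10.1 in Rybp-null against 3.48 and 4.77 in wild type cultures at days 8 and 14. Nothing in the labels says that replicates were separate cultures, so p-values measure the spread between these libraries only. The RNA came from whole cultures, in which fewer endothelial cells and less RNA per endothelial cell cannot be told apart.

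Promoter sequences were available from RefSeq for 7 of the 9 genes, Cdh5 and Pecam1 being unmatched. Those of Tek, Tie1 and Emcn are shown because these genes fell together between days 8 and 14 in Rybp-null cultures, and that of Flt1 because it did not. Each is the 250 bases before the annotated start on build GRCm38.p6, printed 5′ to 3′ on the gene's strand; the counts were made on another build, mm9. Capitals mark GGAA or its reverse complement TTCC, the core bound by ETS factors such as Erg and Fli1. The windows are chr4:94739039-94739288 on the plus strand, chr4:118489850-118490099 on the minus strand, chr3:137340828-137341077 on the plus strand and chr5:147726012-147726261 on the minus strand.
Tek: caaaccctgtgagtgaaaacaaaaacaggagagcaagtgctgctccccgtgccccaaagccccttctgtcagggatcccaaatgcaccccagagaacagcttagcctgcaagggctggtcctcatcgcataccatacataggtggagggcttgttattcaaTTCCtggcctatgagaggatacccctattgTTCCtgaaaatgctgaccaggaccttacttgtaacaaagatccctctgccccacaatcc
Tie1: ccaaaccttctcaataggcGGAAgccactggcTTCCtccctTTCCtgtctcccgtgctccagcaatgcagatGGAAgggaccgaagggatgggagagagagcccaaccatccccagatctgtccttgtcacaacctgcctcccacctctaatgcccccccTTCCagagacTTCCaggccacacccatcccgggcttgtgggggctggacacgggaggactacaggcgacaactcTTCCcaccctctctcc
Emcn: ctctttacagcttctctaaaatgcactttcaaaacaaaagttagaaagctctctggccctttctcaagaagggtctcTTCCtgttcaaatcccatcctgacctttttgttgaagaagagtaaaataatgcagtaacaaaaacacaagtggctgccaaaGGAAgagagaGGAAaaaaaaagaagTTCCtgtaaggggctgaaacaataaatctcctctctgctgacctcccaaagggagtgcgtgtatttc
Flt1: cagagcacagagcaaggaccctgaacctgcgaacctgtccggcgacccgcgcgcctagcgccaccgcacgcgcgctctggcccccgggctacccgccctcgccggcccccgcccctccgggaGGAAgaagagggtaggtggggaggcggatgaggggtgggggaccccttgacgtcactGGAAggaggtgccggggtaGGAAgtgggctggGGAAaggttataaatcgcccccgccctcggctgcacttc
The core occurred 2 times in the Tek window, 7 times in Tie1, and 4 times each in Emcn, Flt1 and Kdr. Eng had 3 matches and Cldn5 had 0. Such short matches are common, since 93.4% of 32851 mouse promoter windows of this length held at least 1, with a median of 3. The longer form AGGAAG, which contains the core, was found on either strand 2 times each in Flt1, Emcn and Eng and 1 time in Tie1, and was absent from the Tek, Kdr and Cldn5 windows; 29.5% of all windows held it. The GATA motif AGATAA, found in 9.99% of windows, was in none of the 7. The match counts thus did not separate the genes that fell together from Flt1. A match is a description of these letters only.

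**Figure D1:**
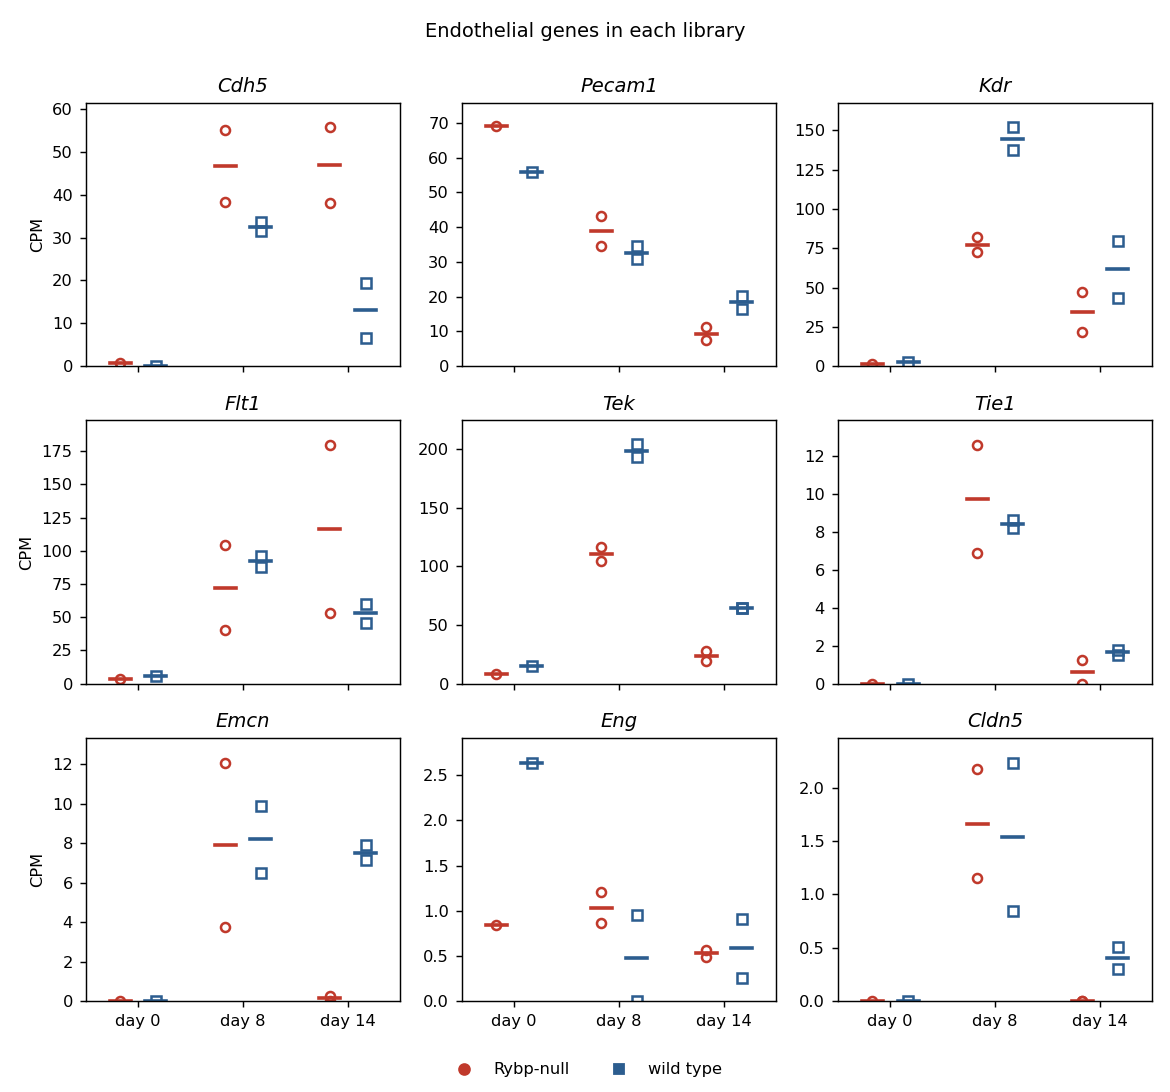
Level of each endothelial gene in each library, in CPM on linear axes that differ between panels, by day; red circles are Rybp-null and blue squares wild type libraries, and bars are group means (1 library a genotype at day 0, 2 at days 8 and 14). At day 14 both Rybp-null libraries lie below both wild type libraries for Tek and Emcn and above them for Cdh5, while Eng and Cldn5 stay under 3 CPM throughout.

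Among the junction genes, Cdh5 (ENSMUSG00000031871, chromosome 8) had 0.677 CPM in the Rybp-null library at day 0, 55.1 and 38.3 CPM at day 8 and 55.7 and 38.1 CPM at day 14. In wild type libraries it had 0 CPM at day 0, 31.6 and 33.5 CPM at day 8 and 19.5 and 6.64 CPM at day 14. The Rybp-null libraries of days 8 and 14 spanned nearly the same range, and the wild type libraries of day 14 were below those of day 8. Cdh5 was higher at day 8 than at day 0 in both genotypes, by 70.1-fold in Rybp-null cells (95% counting interval 27.1 to 259, adjusted p = 8e-05) and by at least 33-fold in wild type cells, where day 0 had 0 counts (adjusted p = 0.000164). The day 14 to day 8 log2 fold change was 0.00 (standard error 0.38, adjusted p = 1) in Rybp-null and −1.34 (standard error 0.42, adjusted p = 0.105) in wild type cultures. The wild type fall passed without the filter on low counts. Its size depended on single libraries, being −2.29 without wild type day 14 replicate 1 and −0.74 without replicate 2.

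Between genotypes the Cdh5 libraries did not overlap at either day. The log2 fold change of Rybp-null over wild type was 0.52 (standard error 0.39, adjusted p = 0.613) at day 8 and 1.86 (standard error 0.41, adjusted p = 0.0675) at day 14. The day 14 difference passed with DESeq2 (adjusted p = 0.0105), without a filter on low counts (1.64e-06), and without wild type day 14 replicate 1 (0.0293) or either Rybp-null library of day 8 (0.0478 and 0.046). It rested on the wild type libraries of day 14, being 2.81 without replicate 1 and 1.27 (adjusted p = 0.456) without replicate 2 of that group. The change of the genotype difference between the days was 1.34 (standard error 0.56, adjusted p = 0.785). Chromosome 8, where Cdh5 lies, was higher as a whole in Rybp-null cultures, with a median log2 fold change of 0.15 over 758 genes at day 8 and of 0.10 at day 14. The 50 tested genes nearest to Cdh5 had medians of 0.08 and 0.12 at days 8 and 14, with 31 of the 50 positive at each day. The part of the chromosome in the Cdh5 difference was not tested.

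Pecam1 (ENSMUSG00000020717, chromosome 11) ran the opposite course, being highest in the ES cells. Its levels were 69.0 CPM in the Rybp-null library at day 0, 43.0 and 34.5 CPM at day 8 and 11.3 and 7.41 CPM at day 14. The wild type libraries had 55.8 CPM at day 0, 30.7 and 34.7 CPM at day 8 and 16.4 and 20.2 CPM at day 14. The genotypes overlapped at day 8, and at day 14 both Rybp-null libraries were lower. In Rybp-null cultures it fell by 2.06 on the log2 scale between days 8 and 14 (standard error 0.29, adjusted p = 0.00122). In wild type cultures the same difference was −0.83 (standard error 0.28, adjusted p = 0.13). The genotype difference did not pass at day 8 (log2 fold change 0.25, standard error 0.26, adjusted p = 0.754) or at day 14 (−0.98, standard error 0.30, adjusted p = 0.171), nor did its change between the days (−1.23, standard error 0.40, adjusted p = 0.718). Against day 0, day 8 was lower by a log2 fold change of −0.83 in Rybp-null (standard error 0.30, adjusted p = 0.0482) and of −0.77 in wild type cells (standard error 0.32, adjusted p = 0.0694). At day 0, with 1 library each and no test, the ratio of Rybp-null to wild type was 1.24 (95% counting interval 1.03 to 1.49). The Rybp-null call against day 0 ended with DESeq2 (adjusted p = 0.131), without the filter (0.0544) and in 5 of 8 fits that left out 1 library. The wild type difference passed without Rybp-null day 8 replicate 2 (0.0489).

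Cldn5 (ENSMUSG00000041378, chromosome 16) was close to the limit of detection. Its counts in Rybp-null libraries were 9 and 4 at day 8 and 0 at days 0 and 14. In wild type libraries they were 0 at day 0, 7 and 3 at day 8, then 1 and 2 at day 14. Day 8 was at least 3.36-fold above day 0 in Rybp-null and at least 1.51-fold in wild type cells, against a floor of 3 counts over a group's libraries together. Day 14 was at least 4.33-fold below day 8 in Rybp-null cultures, and the wild type ratio was 0.278 (95% counting interval 0.0492 to 1.08). The Rybp-null to wild type ratio at day 8 was 1.14 (0.462 to 2.91), and no fold can be given for day 14. Counting error is all that such intervals and floors cover, here and below.

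Of the VEGF receptors, Kdr (ENSMUSG00000062960, chromosome 5) had 1.35 CPM in the Rybp-null library at day 0, 82.0 and 72.5 CPM at day 8 and 47.3 and 22 CPM at day 14. In wild type libraries it had 2.31 CPM at day 0, 152 and 137 CPM at day 8 and 79.4 and 43.6 CPM at day 14. It was higher at day 8 than at day 0 by a log2 fold change of 5.80 in Rybp-null (standard error 0.64, adjusted p = 3.42e-05) and of 5.95 in wild type cells (standard error 0.66, adjusted p = 2.93e-05). The Rybp-null libraries of day 8 lay below both wild type libraries, and those of day 14 overlapped them. The genotype difference was −0.90 at day 8 (standard error 0.33, adjusted p = 0.243) and −0.83 at day 14 (standard error 0.35, adjusted p = 0.329), and among the alternatives run both passed only without the filter on low counts (adjusted p = 0.0108 and 0.0403). With 1 library left out the day 14 difference ran from −1.48, without Rybp-null day 14 replicate 1, to −0.34. At day 0 the ratio was 0.586 (95% counting interval 0.186 to 1.9). The change of the difference between days 8 and 14 was 0.07 (standard error 0.48, adjusted p = 1). From day 8 to day 14 the log2 fold change was −1.16 in Rybp-null (standard error 0.34, adjusted p = 0.0618) and −1.24 in wild type cultures (standard error 0.33, adjusted p = 0.0642). With DESeq2 both passed (adjusted p = 0.0283 and 0.02), as they did without the filter (0.000102 and 2.2e-05). Without Rybp-null day 14 replicate 1 they were −1.81 (adjusted p = 0.0114) in Rybp-null and −1.24 (0.0174) in wild type cultures, and the wild type value also passed without Rybp-null day 14 replicate 2 (0.0168).

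Flt1 (ENSMUSG00000029648, chromosome 5) varied more between Rybp-null replicates than between the genotypes. Its levels were 3.22 CPM in the Rybp-null library at day 0, 40.1 and 104 CPM at day 8 and 180 and 53.1 CPM at day 14. The wild type libraries had 5.94 CPM at day 0, 87.8 and 96.4 CPM at day 8 and 60.2 and 45.4 CPM at day 14. The genotypes overlapped at both days. The genotype difference was −0.36 at day 8 (standard error 0.58, adjusted p = 0.852) and 1.14 at day 14 (standard error 0.59, adjusted p = 0.488), with a change between the days of 1.5 (standard error 0.83, adjusted p = 0.892). Without Rybp-null day 14 replicate 1 the day 14 difference was 0.01, and without replicate 2 it was 1.77. At day 0 the ratio was 0.541 (95% counting interval 0.269 to 1.09). Flt1 was higher at day 8 than at day 0 in Rybp-null (log2 fold change 4.47, standard error 1.00, adjusted p = 0.00912) and in wild type cells (3.95, standard error 0.99, adjusted p = 0.0143), and both calls ended without the filter on low counts (adjusted p = 0.102 and 0.13). Without Rybp-null day 8 replicate 2 the Rybp-null value was 3.63 (adjusted p = 0.0386). From day 8 to day 14 it did not pass in Rybp-null (0.69, standard error 0.58, adjusted p = 0.567) or wild type cultures (−0.80, standard error 0.59, adjusted p = 0.579).

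At day 14 the mean of Flt1 was higher in Rybp-null cultures through replicate 1, with the genotypes overlapping. The summed level of trophoblast genes at that day was also higher in Rybp-null cultures. A list of 10 of them, written after the values were seen, summed to 489 to 687 CPM in Rybp-null and 74.5 to 156 CPM in wild type cultures, with Gcm1 at 0 in Rybp-null and Prl3d1 and Prl2c2 at 0 in wild type libraries. At day 8 the same list summed to 124 to 144 CPM in Rybp-null and 8.30 to 19.4 CPM in wild type cultures, with Prl2c2 at 0 in Rybp-null and Tpbpa and Prl2c2 at 0 in wild type libraries. Tfap2c, which ES cells also make (115 CPM in Rybp-null and 214 CPM in wild type cells of day 0), gave 84.6 and 86.9 CPM of the Rybp-null sums at day 8. Tpbpa, a gene of the spongiotrophoblast, had 427 and 289 CPM in the Rybp-null libraries of day 14, against 45.9 and 4.59 CPM in the wild type libraries. Tfap2c had 150 and 104 CPM in Rybp-null against 48.4 and 3.06 CPM in wild type libraries of day 14. Tpbpa and Tfap2c made up most of the Rybp-null sums at that day. The part of trophoblast cells in the Flt1 level was not tested.

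Tek (ENSMUSG00000006386, chromosome 4), the receptor for angiopoietins, had 8.12 CPM in the Rybp-null library at day 0, 116 and 104 CPM at day 8 and 19.7 and 27.9 CPM at day 14. The wild type libraries had 15.2 CPM at day 0, 204 and 193 CPM at day 8 and 64.2 and 64.3 CPM at day 14. At all 3 days every Rybp-null library was below every wild type library of that day. The log2 fold change of Rybp-null over wild type was −0.85 at day 8 (standard error 0.20, adjusted p = 0.0621) and −1.43 at day 14 (standard error 0.22, adjusted p = 0.0135). At day 0, with 1 library each and no test, the ratio was 0.535 (95% counting interval 0.35 to 0.82). The day 8 difference passed with DESeq2 (adjusted p = 0.0296), without the filter (0.0109) and without either Rybp-null library of day 14 (0.0428 and 0.0424). The day 14 call ended without wild type day 14 replicate 1 (0.0609), wild type day 14 replicate 2 (0.14) or Rybp-null day 14 replicate 1 (0.0946).

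Over time Tek passed in each of the 4 comparisons of days. It was higher at day 8 than at day 0 by a log2 fold change of 3.76 in Rybp-null (standard error 0.31, adjusted p = 2.7e-06) and of 3.71 in wild type cells (standard error 0.31, adjusted p = 2.96e-06). From day 8 to day 14 it fell by 2.20 in Rybp-null (standard error 0.22, adjusted p = 0.000154) and fell by 1.63 in wild type cultures (standard error 0.20, adjusted p = 0.00117). These 4 calls held under every alternative run. The genotype difference changed by −0.58 between the days (standard error 0.29, adjusted p = 0.836), so a steeper fall in Rybp-null cultures was not shown.

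Tie1 (ENSMUSG00000033191, chromosome 4) had 0 CPM in the Rybp-null library at day 0, 12.6 and 6.91 CPM at day 8 and 0 and 1.24 CPM at day 14. In wild type libraries it had 0 CPM at day 0, 8.62 and 8.17 CPM at day 8 and 1.52 and 1.79 CPM at day 14. Day 8 was at least 19.7-fold above day 0 in Rybp-null (adjusted p = 0.00143) and at least 8.47-fold in wild type cells (adjusted p = 0.00485). The fall to day 14 passed in Rybp-null cultures, at 5 against 76 counts (log2 fold change −3.85, standard error 0.79, adjusted p = 0.011). In wild type cultures, at 12 against 56 counts, it did not pass (−2.32, standard error 0.70, adjusted p = 0.0963). The wild type value ran from −2.44 to −2.21 over the alternatives run and passed under some of them. The change of the genotype difference between the days was −1.53 (standard error 1.10, adjusted p = 0.922), so a steeper fall in Rybp-null cultures was not shown. The genotypes overlapped at day 8 (0.22, standard error 0.59, adjusted p = 0.916). At day 14 both Rybp-null libraries were lower, at 5 counts in all against 12 in wild type libraries, which did not pass (−1.31, standard error 0.93, adjusted p = 0.634). All 5 counts came from replicate 2, and without Rybp-null day 14 replicate 1 the genotype difference was −0.41 and the fall from day 8 was −2.95 (adjusted p = 0.0397). Without replicate 2 the group had 0 counts, and the genotype difference still did not pass (adjusted p = 0.224).

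Emcn (ENSMUSG00000054690, chromosome 3), the surface sialomucin, had 0 CPM in the Rybp-null library at day 0, 12.1 and 3.74 CPM at day 8 and 0.282 and 0 CPM at day 14. The wild type libraries had 0 CPM at day 0, 9.90 and 6.48 CPM at day 8 and 7.91 and 7.15 CPM at day 14. Emcn was thus present at day 8 in both genotypes. At day 14 the Rybp-null libraries held 1 count together, and the wild type libraries lay within their day 8 range. Day 8 was at least 16.3-fold above day 0 in Rybp-null (adjusted p = 0.0017) and at least 8.17-fold in wild type cells (adjusted p = 0.00451). In Rybp-null cultures the ratio of day 14 to day 8 was 0.0159 (95% counting interval 0.000396 to 0.0919, adjusted p = 0.00489), and this call held under every alternative run. In wild type cultures, with 54 counts at each of the days, the log2 fold change was −0.12 (standard error 0.59, adjusted p = 0.961).

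The ratio of Rybp-null to wild type Emcn at day 14 was 0.0176 (95% counting interval 0.000437 to 0.102, adjusted p = 0.029). At day 8 the genotypes overlapped (log2 fold change −0.03, standard error 0.58, adjusted p = 1). The change between the days had an adjusted p = 0.459 in edgeR (0.000639 unadjusted), so that a genotype difference particular to day 14 did not pass; without the filter on low counts it did (adjusted p = 0.00182). The day 14 call ended in 6 of the 8 fits that left out 1 library, with adjusted p = 0.0566 and 0.0573 without wild type day 8 replicates 1 and 2, 0.0863 and 0.172 without wild type day 14 replicates 1 and 2, and 0.1 and 0.116 without Rybp-null day 14 replicates 1 and 2. In those fits the remaining library of a group is taken to vary as the others do.

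Eng (ENSMUSG00000026814, chromosome 2) was barely counted. It had 5 counts in the Rybp-null library at day 0, 5 and 3 counts at day 8 and 2 counts in each library of day 14. The wild type libraries had 8 counts at day 0, 3 and 0 counts at day 8, then 3 and 1 counts at day 14. No library held more than 8 counts. The Rybp-null to wild type ratio was 0.321 at day 0 (95% counting interval 0.0825 to 1.11), 2.34 at day 8 (0.562 to 13.7) and 0.948 at day 14 (0.177 to 5.09). Day 8 over day 0 was 1.24 in Rybp-null (0.358 to 4.83) and 0.17 in wild type cells (0.0291 to 0.709). In the annotation used here 61 of its exonic bases overlap Fpgs on the other strand. The strand setting of the counting is not given in the sources used here, so reads of that stretch cannot be assigned.

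Counted together, 6 of the 7 tested genes were higher at day 8 than at day 0 in both genotypes, Pecam1 being the exception and lower in Rybp-null cells. Among all genes tested 37.7% were called in Rybp-null cells (19% higher and 18.6% lower) and 40.5% in wild type cells (21.2% higher). The median log2 fold change of the 7, with genes at 0 counts at their bound, was 4.30 in Rybp-null and 3.71 in wild type cells, against 0.04 and 0.12 over all genes. From day 8 to day 14, 4 of the 7 were lower in Rybp-null cultures, where 7.69% of all genes were called and 3.41% were lower, and these were Pecam1, Tek, Tie1 and Emcn. In wild type cultures 1 was lower, Tek, where 4.04% of all genes were called and 1.57% were lower. The medians were −2.06 in Rybp-null and −1.24 in wild type cultures, against −0.01 and 0.00 over all genes.

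Between genotypes at day 8 none of the 7 was called by edgeR, where 1.26% of all genes were. At an unadjusted p under 0.05 there were 2, Kdr and Tek, against 2122 of all 15819 genes tested. DESeq2 called 1 of the 7, Tek. At day 14 edgeR called 2, both lower in Rybp-null cultures, Tek and Emcn, where 0.613% of all genes were called and 0.354% were lower. The Cdh5 difference of that day, higher in Rybp-null cultures, passed with DESeq2. The median of the 7 was −0.03 at day 8 and −0.98 at day 14, against 0.01 and −0.01 over all genes, and at day 14 the fitted values had both signs. Libraries of the genotypes did not overlap for 3 of the 7 at day 8 and for 5 at day 14. This held for 42% and 43.6% of all genes tested. For the change of the genotype difference between the days edgeR called none of the 7 and 0% of all genes. At an unadjusted p under 0.05 there were 3 of the 7, against 962 of all 15819 genes tested. DESeq2 called none of the 7, but it gave no adjusted p for Tie1 and Emcn.

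**Figure D2:**
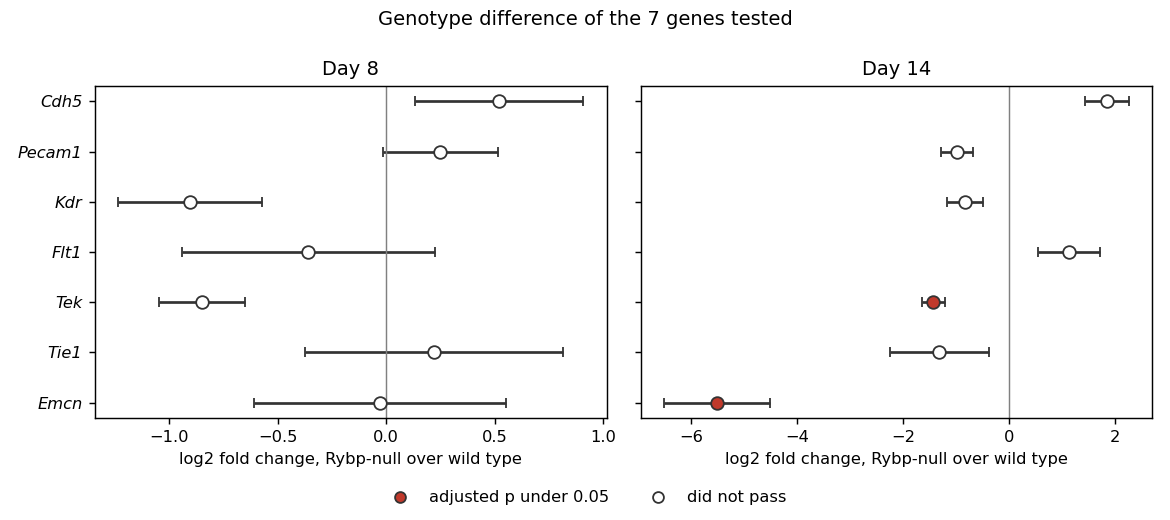
Log2 fold change of Rybp-null over wild type at day 8 and day 14 for the 7 genes tested, on axes that differ between panels; points are edgeR estimates, bars are 1 standard error to each side, and filled points passed at an adjusted p under 0.05. Tek and Emcn passed at day 14, and Cdh5 at 1.86 and Flt1 at 1.14 lie on the other side of 0; the Emcn point at day 14 rests on 1 count in Rybp-null libraries and depends on the fit's handling of low counts.

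Ratios of genes within a library do not depend on how libraries are scaled. The count of Cdh5 over that of Tek was 0.475 and 0.367 in Rybp-null against 0.155 and 0.173 in wild type cultures at day 8. At day 14 it was 2.83 and 1.36 in Rybp-null against 0.303 and 0.103 in wild type cultures. Every Rybp-null library of days 8 and 14 thus had more Cdh5 per Tek than every wild type library of those days. The ratio of Cdh5 to Kdr was 0.673 and 0.528 in Rybp-null against 0.208 and 0.244 in wild type cultures at day 8. It was 1.18 and 1.73 in Rybp-null against 0.245 and 0.152 in wild type cultures at day 14. Flt1 over Kdr, the weak over the strong VEGF receptor, was 0.49 and 1.44 in Rybp-null against 0.578 and 0.702 in wild type cultures at day 8, where the genotypes overlapped. At day 14 it was 3.8 and 2.42 in Rybp-null against 0.759 and 1.04 in wild type cultures. Kdr over Tek did not separate the genotypes at day 14, at 2.4 and 0.788 in Rybp-null against 1.24 and 0.679 in wild type cultures. At day 8 it was 0.706 and 0.696 in Rybp-null against 0.746 and 0.71 in wild type cultures, close together without overlap. These ratios were chosen after the values were seen, and they show unequal change without saying which gene moved.

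**Figure D3:**
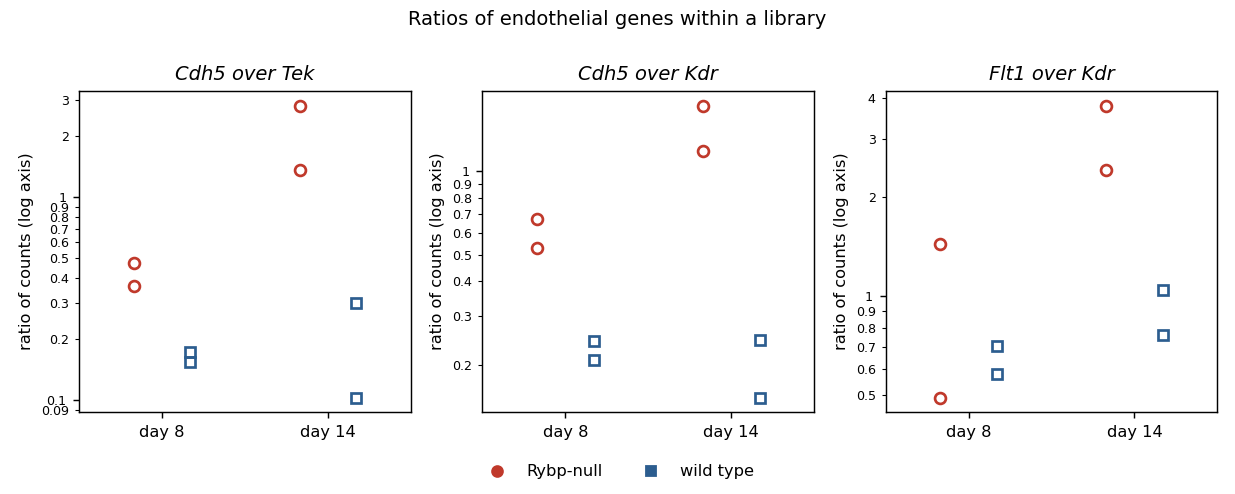
Ratio of the counts of 2 endothelial genes within each library on log axes, at days 8 and 14; red circles are Rybp-null and blue squares wild type libraries (2 each a day). Cdh5 over Tek and Cdh5 over Kdr are higher in all Rybp-null than in all wild type libraries, and Flt1 over Kdr is higher in both Rybp-null libraries at day 14 only.

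The order of the genes by level per kilobase of exon differed between genotypes. At day 0 Pecam1 led, at 11.1 CPM per kb in the Rybp-null and 8.95 in the wild type library, followed by Tek at 1.72 and 3.22. At day 8 Tek led both, at 23.4 CPM per kb in Rybp-null and 42.1 in wild type cultures. Cdh5 came next in Rybp-null cultures at 11.1 and Kdr next in wild type cultures at 16, and the means of Tie1, Emcn and Cldn5 lay between 1.09 and 1.98 CPM per kb in both genotypes, each overlapping the next in that order. At day 14 the Rybp-null means ran from Cdh5 at 11.2 through Flt1 at 8.63 and Tek at 5.05 to Kdr at 3.84 CPM per kb, each overlapping the next. In wild type cultures Tek was still first at 13.6 CPM per kb, ahead of Kdr at 6.81, Flt1 at 3.91 and Cdh5 at 3.11, with Flt1, Cdh5 and Pecam1 overlapping as neighbours.

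The genes most like Cdh5 across the 10 libraries, by Pearson correlation of log2 CPM, were Csrp1 (r = 0.993) and Ap1s3 (0.981) with Irx3, Fmo1 and Plekha5 (0.98 each). All 5 lie on chromosomes 1, 6 or 8, which were among the 4 chromosomes, with 14, whose genes were higher as a whole in Rybp-null cultures. For chromosome 1 the median log2 fold change was 0.42 at day 8 and 0.41 at day 14, and for chromosome 6 it was 0.22 and 0.20. The mean course of the 7 tested genes was best matched by Ldb2 (0.999), Ece1 (0.987), Cd93 (0.985), Rprm (0.985) and Hand1 (0.982). Ece1 encodes the enzyme that matures endothelin, and Cd93 a lectin-like protein of endothelial and myeloid cells. Neither set of 5 held a gene that passed between genotypes at day 8 or 14 (lowest adjusted p = 0.101). The 10 libraries fall into 6 groups that span the step from day 0 to day 8, so these values are a description.

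Around the 9 genes, 117 other vascular genes were listed in 6 groups by role, and 101 of them were tested. At day 8, 52 were higher and 6 lower than at day 0 in Rybp-null cells, and 53 were higher and 6 lower in wild type cells. Over all genes tested, 19% were higher and 18.6% lower in Rybp-null cells. In wild type cells 40.5% of all genes were called in either direction, and 21.2% were higher. Of 17 further receptors and co-receptors 15 were higher in each genotype. Of the 17, 9 had 0 counts in the wild type and 2 in the Rybp-null library of day 0. Genes that scarce at day 0 entered the test through later days, so counts over these lists describe them and carry no further weight. Nrp1, a co-receptor for VEGF and semaphorins, led in both genotypes. Its ratio of day 8 to day 0 was 386 in Rybp-null (95% counting interval 132 to 1876) and 407 in wild type cells (112 to 3360), with 3 and 2 counts at day 0. The transcription factors followed with 14 of 24 higher and 2 lower in Rybp-null and 13 higher and 3 lower in wild type cells. Tbx20, a factor of heart and endocardium, was higher by a log2 fold change of 5.71 (standard error 0.34, adjusted p = 3.19e-07) in Rybp-null and 6.20 (standard error 0.38, adjusted p = 3.3e-07) in wild type cells. Jam2, a junction adhesion gene with high counts in ES cells, fell by 7.33 in Rybp-null (standard error 0.46, adjusted p = 4.37e-07) and fell by 6.10 in wild type cells (standard error 0.43, adjusted p = 8.52e-07). Cxcl12, a chemokine that guides vessel growth, was higher by 7.37 in Rybp-null (standard error 0.56, adjusted p = 1.86e-06) and by 6.93 in wild type cells (standard error 0.56, adjusted p = 2.77e-06).

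From day 8 to day 14 several regulators of the endothelial and blood lineages fell in both genotypes. Of the 101 genes 16 were lower and 9 higher in Rybp-null cultures, and 11 were lower and 8 higher in wild type cultures, where 7.69% and 4.04% of all genes were called and 3.41% and 1.57% were lower. Of the 24 transcription factors 5 were lower and 1 higher in each. Tal1, which specifies blood and endothelial progenitors, fell by 4.39 in Rybp-null (standard error 0.43, adjusted p = 0.000154) and fell by 2.23 in wild type cultures (standard error 0.39, adjusted p = 0.00776). Erg, an ETS factor of endothelial cells, fell by 2.56 (standard error 0.32, adjusted p = 0.000628) in Rybp-null and fell by 1.94 (standard error 0.31, adjusted p = 0.00478) in wild type cultures. Of the 17 receptors 8 were lower and 2 higher in Rybp-null, and 4 were lower and 1 higher in wild type cultures. Calcrl, the adrenomedullin receptor, fell by 1.94 in Rybp-null (standard error 0.30, adjusted p = 0.00198) and fell by 1.31 in wild type cultures (standard error 0.27, adjusted p = 0.0183). Of the ligands 3 were higher in Rybp-null and 2 in wild type cultures, among them Vegfd in both (log2 fold changes 4.57, standard error 0.76, adjusted p = 0.00345, and 2.71, standard error 0.62, adjusted p = 0.0301), and none was called lower by edgeR. The 31 surface, junction and secreted genes had 3 lower and 2 higher in Rybp-null, and 4 higher in wild type cultures. Among them Cd93 and Cd34 fell in Rybp-null cultures (log2 fold changes −2.13, standard error 0.39, adjusted p = 0.00592, and −1.99, standard error 0.42, adjusted p = 0.0126). In wild type libraries Cd93 also went from 25.9 and 20.6 CPM at day 8 to 7.91 and 9.44 CPM at day 14, without passing. Cav1, which encodes the coat protein of caveolae, was higher in Rybp-null cultures by 2.65 (standard error 0.40, adjusted p = 0.00191). Blood and platelet genes, a list of 13, moved alongside: they summed to 1125 to 3244 CPM in Rybp-null and 1086 to 1104 CPM in wild type cultures at day 8, and to 125 to 137 CPM in Rybp-null and 114 to 127 CPM in wild type cultures at day 14. At day 8 Gp9 was at 0 in Rybp-null and Gp1bb at 0 in wild type cultures. At day 14 Hbb-bh1, Klf1, Gp9 and Gp1bb were at 0 in Rybp-null, and Gp9 and Gp1bb in wild type cultures. The part of blood cells in these falls was not tested.

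Between genotypes 1 of the 101 vascular genes passed at day 8 and 2 at day 14, against 1.26% and 0.613% of all genes. At day 8 it was Sema3a, a repellent guidance ligand that binds neuropilins, lower in Rybp-null cultures at 8.95 and 7.77 CPM against 31.0 and 26.8 CPM in the wild type libraries (−1.78 on the log2 scale, standard error 0.28, adjusted p = 0.00988). At day 14 it was Sema3a again, at 18.0 and 17.8 CPM in Rybp-null against 52.6 and 47.5 CPM in wild type cultures (−1.48, standard error 0.26, adjusted p = 0.0254), together with Adgrl4. Adgrl4, an adhesion receptor of endothelial cells also called Eltd1, had 1.69 and 1.24 CPM in Rybp-null against 7 and 11.7 CPM in wild type cultures at day 14 (−2.67, standard error 0.47, adjusted p = 0.024). At day 8 it was on the other side, at 26.8 and 22.7 CPM in Rybp-null against 19.2 and 18.0 CPM in wild type cultures, without passing (0.42, standard error 0.34, adjusted p = 0.659). The day 14 calls of Sema3a and Adgrl4 ended in 6 and 5 of the 8 fits that left out 1 library, and the day 8 call of Sema3a ended without wild type day 8 replicate 1 (adjusted p = 0.129).

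By list, the median log2 fold change at day 14 was −0.43 for the 17 receptors, −0.47 for the 31 surface, junction and secreted genes and −0.14 for 14 vascular ligands. It was 0.06 for the transcription factors, 0.33 for 8 Notch and arterial-venous genes and −0.08 for 8 endocardial genes, against −0.01 over all genes. At day 8 the medians were 0.10 for the receptors, 0.00 for the surface genes, −0.40 for the ligands, 0.03 for the factors, −0.14 for the Notch and arterial-venous genes and 0.02 for the endocardial genes. The genes nearest to passing at day 14 were Mcam, an adhesion protein of endothelium and pericytes, at −1.95 (standard error 0.40, adjusted p = 0.0548), and Lmo2, the partner of Tal1, at −1.37 (standard error 0.32, adjusted p = 0.0824). Cgnl1, a junction-associated gene of the endocardial list, stood at 0.91 (standard error 0.23, adjusted p = 0.101) and the arterial ligand Efnb2 at 0.67 (standard error 0.20, adjusted p = 0.159). At day 8 they were Mef2c, a cardiac and endothelial factor, at −1.27 (standard error 0.30, adjusted p = 0.0662) and Lyve1, a marker of lymphatic endothelium and macrophages, at −2.31 (standard error 0.62, adjusted p = 0.0997).

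Macrophage genes also differed with genotype, and leukocytes share the markers Pecam1 and Lyve1. Of 10 listed, 4 were lower in Rybp-null cultures at day 8 and 1, Lyz2, at day 14, where 1.26% and 0.613% of all genes were called. They summed to 12.1 to 22.7 CPM in Rybp-null and 70.5 to 142 CPM in wild type cultures at day 8. At day 14 they summed to 156 to 196 CPM in Rybp-null and 442 to 565 CPM in wild type cultures. All 10 were counted in every library of these days except Rybp-null day 8 replicate 2, where 7 had no counts. The part of the macrophage genes in the Pecam1 and Lyve1 levels was not tested.

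**Figure D4:**
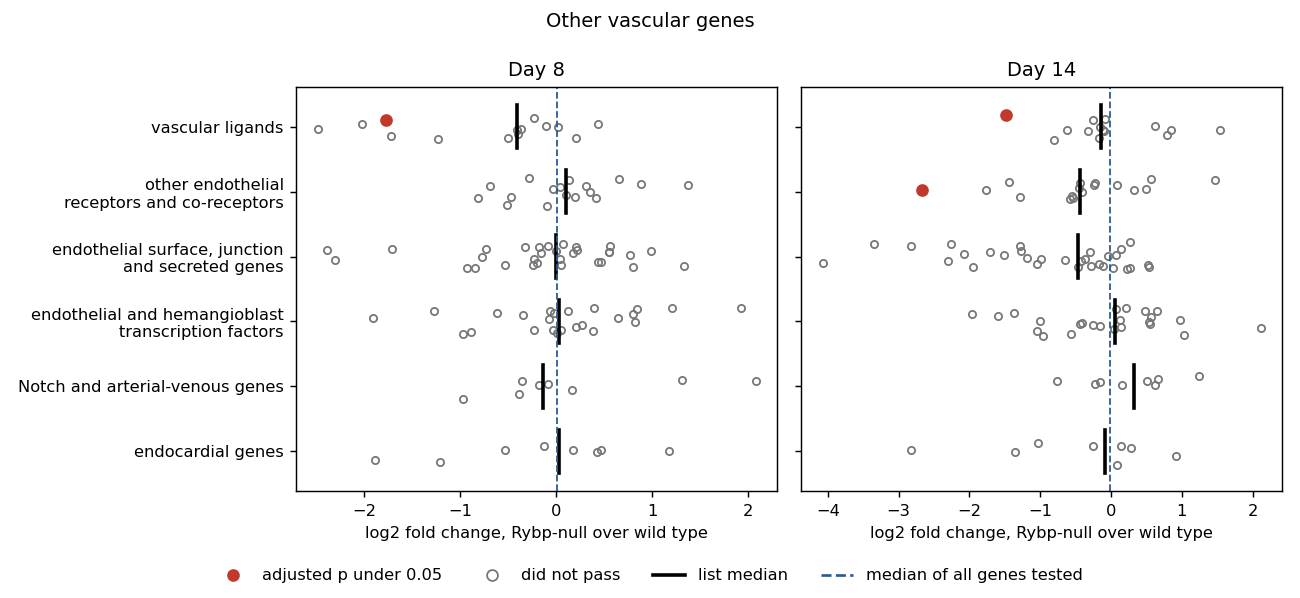
Log2 fold change of Rybp-null over wild type for the other vascular genes tested, by list, at days 8 and 14, on axes that differ between panels; each circle is a gene, filled red where it passed at an adjusted p under 0.05, black bars are list medians and the dashed line is the median of all genes tested. Sema3a at day 8 and Sema3a and Adgrl4 at day 14 are the filled points, all left of 0, and the medians of the receptor list and the surface list at day 14 are −0.43 and −0.47.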

How the data were processed

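RNA-seq counts of 10 libraries were used. The deposited table holds raw whole-number counts for Ensembl gene IDs, as the authors made them; per the submitters' processing notes, TopHat, HTSeq, DESeq and build mm9 were used. Their versions, roles, annotation and strand setting were not given in the sources used here. Per the labels' protocols, libraries were made from TRIzol total RNA with NuGEN Ovation and Encore kits. Symbols matched 30946 of 36191 IDs. Exon lengths and chromosomes came from GENCODE on GRCm38, so CPM per kb is approximate.

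The filter on low counts was filterByExpr (minimum count 10). Counts were TMM-scaled and tested with the two-sided quasi-likelihood test of edgeR 4.0.16 in R 4.3.3. All 10 libraries were fitted with 1 coefficient for each of 6 groups (4 residual degrees of freedom, common biological coefficient of variation 0.214), with Benjamini-Hochberg adjustment over 15819 genes. The lone day 0 libraries are taken to vary as the others do, and the genotypes were not tested at day 0. Standard errors are those the test implies. Ratios of pooled counts carry exact 95% intervals. The procedure was tested on simulated data for the genotype comparison at day 8 only. That simulation does not cover day 14, the change between the days or genes with few counts. Alternatives were DESeq2 1.42.0, other scalings, no filter, fewer libraries, the replicate number as a block, and leaving out each library.

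The 9 genes are named whatever their p. Of the other vascular genes, those passing between genotypes are named, as are up to 3 per list between days. For some lists where none passed, the gene with the lowest adjusted p is named. Genes of other cell types that passed between genotypes are not all named. The genes and lists were chosen with earlier results of these data known.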

Additional observations from a re-analysis of the deposited data

How the results depend on the processing

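Of the log2 fold changes recomputed under the alternatives, 655 kept their direction and their side of the threshold, 27 gained and 30 lost a call, and 14 reversed, all of them uncalled. The number of the 7 genes called between genotypes at day 8 (0) was 1 with DESeq2, 2 without the filter and 0 to 1 when 1 library was left out. At day 14 (2) it was 4 without the filter and 0 to 3 with 1 library left out. For the change between the days (0) it was 1 without the filter. For wild type day 14 against day 8 (1) it was 2 with DESeq2, 4 without the filter and 1 to 3 with 1 library left out. Correlations of replicate differences between groups ran from −0.211 to 0.16 over all genes tested. They do not settle whether replicate numbers mark shared cultures. With the replicate number as a block in the 8 libraries of days 8 and 14, that last count was 2, Kdr joining Tek (adjusted p = 0.0242). In the same fit Kdr also passed in Rybp-null cultures (0.0242).

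With 1 library left out, direction changed for Flt1 (−1.20 to 0.17), Tie1 (−0.29 to 0.58) and Emcn (−1.13 to 0.56) between genotypes at day 8 and for the Kdr interaction (−0.57 to 0.56). It also changed for Emcn between days in wild type cultures (−0.40 to 0.21) and for Cdh5 (−0.30 to 0.29) and Flt1 (−0.43 to 1.53) between days in Rybp-null cultures. Emcn at day 8 was 0.0147 with scaling from genes outside chromosomes 1, 6, 8, 14, X and Y, and Cdh5 between days in Rybp-null cultures was −0.00102 with the 8 later libraries alone. The cause was not tested.

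Without the filter, counts over all genes moved to 708 from 200 at day 8, 637 from 97 at day 14 and 65 from 0 for the interaction. Between days 8 and 14 they moved to 1892 from 1217 in Rybp-null and 1244 from 639 in wild type cultures. DESeq2 called 202 genes at day 14 and 8 for the interaction. Leaving out 1 library gave 28 to 324 at day 8, 14 to 301 at day 14, 0 to 2 for the interaction, 613 to 1243 in Rybp-null and 108 to 935 in wild type cultures. No scaling moved the median of all genes by over 0.1. Depth limits Eng, Cldn5, Tie1 and Emcn, whose groups held between 0 and 76 counts.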
